A study of Mus musculus with 5 samples.

Results

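The dihydrolipoamide dehydrogenase gene Dld, the dihydrolipoamide succinyltransferase gene Dlst and the ADP-forming succinyl-CoA ligase gene Sucla2 encode enzymes of the tricarboxylic acid (TCA) cycle. They were selected by the difference between the first and the last time point, since each held fewer entries at 2 h than at 0 h, and that difference is therefore described here without a test. All sites carrying these symbols were used, which gave 4 of the 34714 sites in the table and 3 of its 8034 gene symbols. ATAC-seq, in which a transposase inserts adapters into open chromatin, was run on C17.2 cells, an immortalised multipotent neural stem cell line of the mouse with the strain background CD1 x C57BL/6. The 0 h library, labelled as the control, was set beside libraries at 0.5, 1, 1.5 and 2 h after a change from DMEM/F12 with fetal bovine serum to a serum-free Knockout DMEM with GlutaMAX and N2 supplement. There was 1 library per time, so no difference below has a replicate check, and the treatment label of neural induction is carried by the 0 h library too. Each site has a whole number per library, from 0 to 10 over the whole table, taken to count how many entries of that library's BED file (a list of genome intervals) lie over the site. A site with 1 or more entries is called covered. The reading as BED entries is an inference, and whether an entry is a read or a called interval is not known. The depth behind the numbers is unknown, and fewer cells with an accessible site cannot be told apart from lower accessibility in each cell.

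The TCA cycle oxidises the acetyl group of acetyl-CoA in the mitochondrial matrix and feeds electrons to the respiratory chain. Within it, the 2-oxoglutarate dehydrogenase complex turns 2-oxoglutarate into succinyl-CoA: Ogdh encodes its decarboxylase, Dlst the lipoyl-bearing transferase core that hands the succinyl group to coenzyme A, and Dld the flavoprotein that reoxidises the lipoyl group. Dld also serves the pyruvate and branched-chain 2-oxo acid dehydrogenases and the glycine cleavage system. Sucla2 encodes the nucleotide-specific subunit of the ligase that splits succinyl-CoA and makes ATP, and its loss in humans causes a depletion of mitochondrial DNA with encephalomyopathy. All are nuclear genes, and progenitors that become neurons are known to shift from glycolysis towards oxidative metabolism.

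The promoters are shown because the sites of all 3 genes lie at or near the annotated 5′ end. Each run is the RefSeq window of 300 bases on GRCm38.p6, read 5′ to 3′ in the direction of the gene, from 250 bases before the 5′ end to 50 bases from it onwards. Capitals mark exact matches to the searched motifs, described after the sequences. The windows are chr12:31351422-31351721 (minus strand) for Dld, chr12:85110583-85110882 (plus strand) for Dlst and chr14:73552536-73552835 (plus strand) for Sucla2.
Dld: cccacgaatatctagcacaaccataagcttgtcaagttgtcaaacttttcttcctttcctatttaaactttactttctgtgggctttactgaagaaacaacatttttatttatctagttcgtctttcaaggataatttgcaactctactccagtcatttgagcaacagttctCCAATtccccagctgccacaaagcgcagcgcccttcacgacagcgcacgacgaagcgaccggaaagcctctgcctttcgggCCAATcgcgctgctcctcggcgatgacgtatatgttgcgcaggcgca
Dlst: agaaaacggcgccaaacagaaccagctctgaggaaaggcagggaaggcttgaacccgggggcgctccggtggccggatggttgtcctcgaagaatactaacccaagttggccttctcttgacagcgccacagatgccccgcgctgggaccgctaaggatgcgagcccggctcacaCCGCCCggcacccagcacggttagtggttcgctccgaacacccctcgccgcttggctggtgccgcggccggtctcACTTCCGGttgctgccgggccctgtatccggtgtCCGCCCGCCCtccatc
Sucla2: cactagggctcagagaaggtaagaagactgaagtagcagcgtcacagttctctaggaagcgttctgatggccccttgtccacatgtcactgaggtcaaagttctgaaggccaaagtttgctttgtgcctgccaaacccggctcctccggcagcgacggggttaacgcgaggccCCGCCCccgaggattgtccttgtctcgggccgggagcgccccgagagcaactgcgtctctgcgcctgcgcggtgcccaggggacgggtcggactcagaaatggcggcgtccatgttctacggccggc

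Dld (ENSMUSG00000020664) had 2 sites, both on chromosome 12 of GRCm38. The first, 31351465 to 31351466, lies 5 to 6 bp inside the RefSeq gene, at its 5′ end, although the deposited table places it 12 bp outside its own model of Dld. The second, 31351075 to 31351077, lies 394 to 396 bp inside the gene. The single site of Dlst (ENSMUSG00000004789) is at 85110831 to 85110832 on chromosome 12, the last 2 bases before the 5′ end of the window's transcript and 1 bp outside the table's gene model, though inside the whole RefSeq gene, which starts at 85110822. The single site of Sucla2 (ENSMUSG00000022110), at 73552831 to 73552836 on chromosome 14, lies 45 to 50 bp inside the gene. As deposited, the 2 sites of Dld carry the plus strand and that of Dlst the minus strand, each opposite to its gene. The site of Sucla2 carries the plus strand, as its gene does. No site of another gene lay within 2000 bp of any site of the 3 genes. The nearest were those of Lamb1, 84.9 kb from Dld, of Ylpm1, 114 kb from Dlst, and of Rb1, 227 kb from Sucla2. In RefSeq, the Prox2 gene overlaps the 5′ end of Dlst, and it had no site in the table.

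The motifs searched, on both strands, were the ETS core of GABPA (CCGGAAGT), the NRF1 core (GCATGCGC), the GC box of SP1 (GGGCGG), the YY1 core (AAGATGGC), the ERR element (TNAAGGTCA), the CREB site (TGACGTCA), the CCAAT box (CCAAT) and the MYC E-box (CACGTG). The Dld window held 2 CCAAT boxes, 78 to 74 bp before the 5′ end and 3 to 7 bp after it, and the site at the 5′ end lies within the second. A CCAAT box was present in 37.4% of all 32851 windows of the table of promoters and in 34.0% of the 7848 windows of genes in the deposited table. The Dlst window held the ETS core in the first 8 bases from the 5′ end onwards, directly after its site, and 3 GC boxes, of which 2 overlap. The ETS core was present in 3.89% of all windows and in 5.58% of those of genes in the deposited table. The Sucla2 window held 1 GC box, 77 to 72 bp before the 5′ end, a motif found in 35.7% of all windows and in 67.6% of those of genes in the table. No motif was common to the 3 windows. No exact match to the other 5 motifs was found in any of them, and those motifs occurred in 1.28 to 7.15% of all windows. The windows also differed in composition: the GC content was 47.0% for Dld, 65.7% for Dlst and 62.0% for Sucla2, against a median of 64.3% for genes in the deposited table. They held 18, 28 and 24 CG dinucleotides, against a median of 24.

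**Figure D1:**
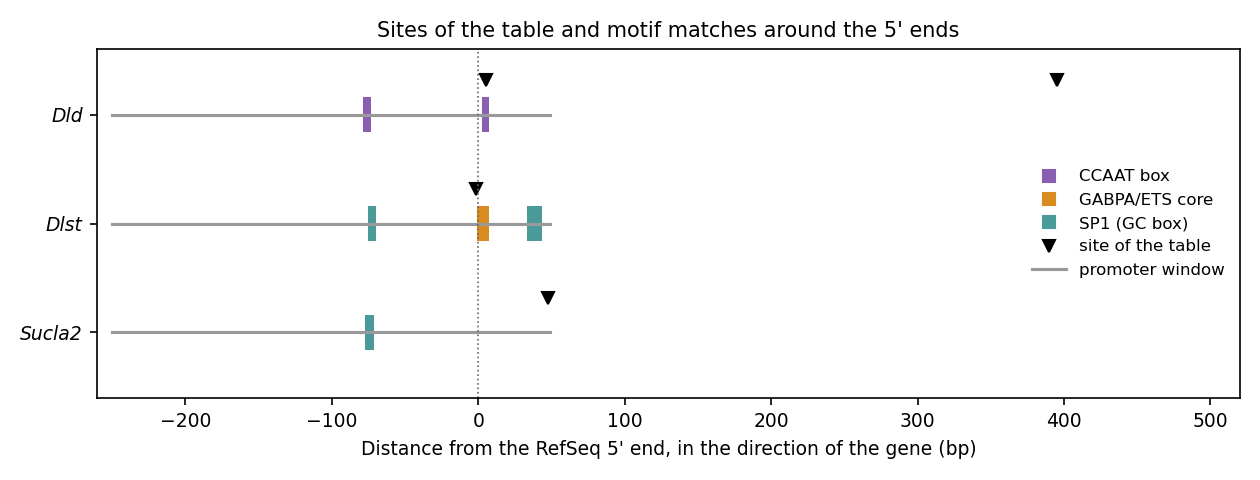
Positions of the table's sites (triangles) and of motif matches (coloured boxes) along the promoter windows of Dld, Dlst and Sucla2, as distance in bp from the RefSeq 5′ end (dotted line) in the direction of the gene. The triangle of Dld at the 5′ end stands over its second CCAAT box, that of Dlst stands just before the ETS core, and the 2 overlapping GC boxes of Dlst are drawn as 1 block.

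Dlst, the succinyltransferase, held 3, 4, 3, 3 and 1 entries in the libraries of 0, 0.5, 1, 1.5 and 2 h. The first 4 libraries were within 1 entry of each other, and the 2 h library alone was low. It was 2 entries below that of 1.5 h. Of the 5544 genes covered in all 5 libraries, 8.12% held their lowest value at 2 h alone, Dld and Dlst among them. On the log2(entries + 1) scale the difference of Dlst at 2 h from 0 h was −1.0. Among all 1617 genes that held 3 entries at 0 h, Dlst included, the means of the 4 later libraries were 3.06, 2.77, 2.93 and 2.70 entries. At 0.5 h, 6.99% of these genes held more entries than Dlst. At 1 h and 1.5 h Dlst had the median value of 3. At 2 h, 6.93% held as few entries as Dlst or fewer.

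Dld, the shared flavoprotein, held 5, 4, 3, 3 and 2 entries in order of time. Its 2 sites, 388 bp apart, had equal values in each of the 5 libraries, so they carry the information of a single region. No library held more entries than the one before it, and the difference of 3 entries between 0 h and 2 h was spread over 3 steps of 1 entry. The log2 difference of 2 h from 0 h was −1.0. Such a course without a rise, ending lower than it began, was seen in 729 of the 8034 genes. Only the 5847 genes covered at 0 h could show it. In 46 of the 729 genes the end was at least 3 entries below the start. With or without a rise on the way, 137 genes ended at least 3 entries lower. Genes with under 3 entries at 0 h could not do so. Genes with 5 entries at 0 h, of which there were 246 with Dld among them, tended to hold fewer later: their means were 4.07, 3.76, 3.99 and 3.54 entries in the 4 later libraries. Dld was close to that mean at 0.5 h and below it at the other 3 times. At 1.5 h, 64.2% of these genes held more entries than Dld and 11.4% fewer, and at 2 h 19.5% held as few as Dld or fewer.

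Sucla2, the ligase subunit, held 4, 3, 2, 4 and 2 entries in order of time. Its course was not steady: the 1.5 h library had the value of 0 h, and the libraries at 1 h and 2 h held the lowest. The log2 difference of 2 h from 0 h was −0.74. The 772 genes with 4 entries at 0 h, Sucla2 included, had means of 3.49, 3.22, 3.35 and 3.06 entries in the 4 later libraries. Sucla2 lay below this mean at 0.5 h, at 1 h and at the last time, and above it at 1.5 h. At 1 h 5.31% of the genes held fewer entries than it did, and at 1.5 h 9.97% held more. At 2 h, 30.2% held as few as Sucla2 or fewer.

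**Figure D2:**
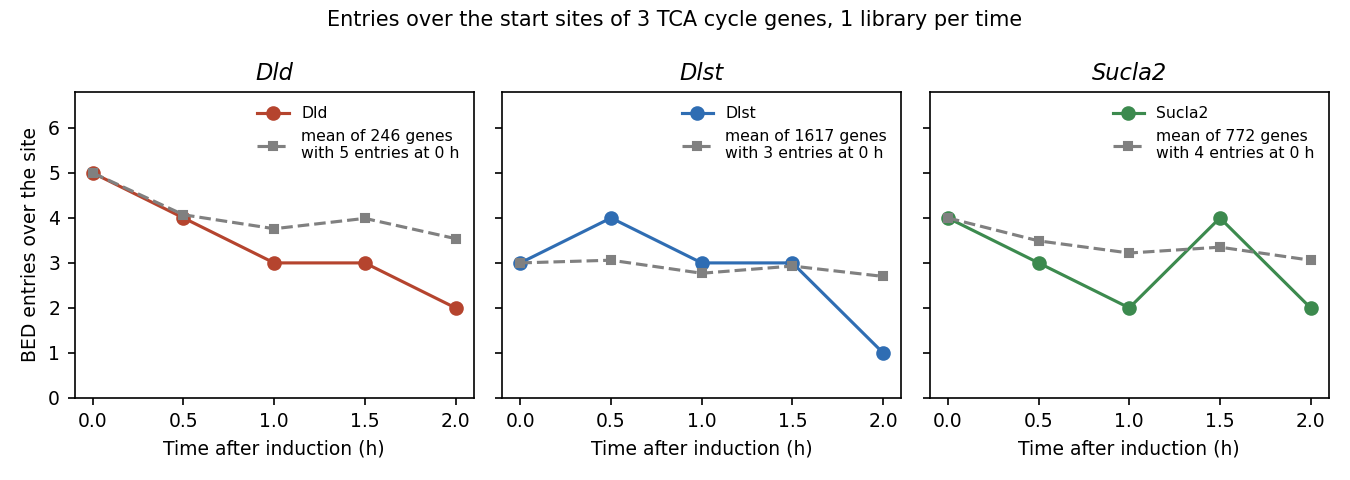
BED entries (y axis) over the sites of Dld, Dlst and Sucla2 in the single library of each time (x axis, hours after induction; circles and solid lines), with the mean of all genes that held the same number at 0 h (squares and dashed lines). Dld steps down from 5 to 2, Dlst stays at 3 or 4 until 1.5 h and ends at 1, and Sucla2 returns to 4 at 1.5 h before it ends at 2.

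**Figure D3:**
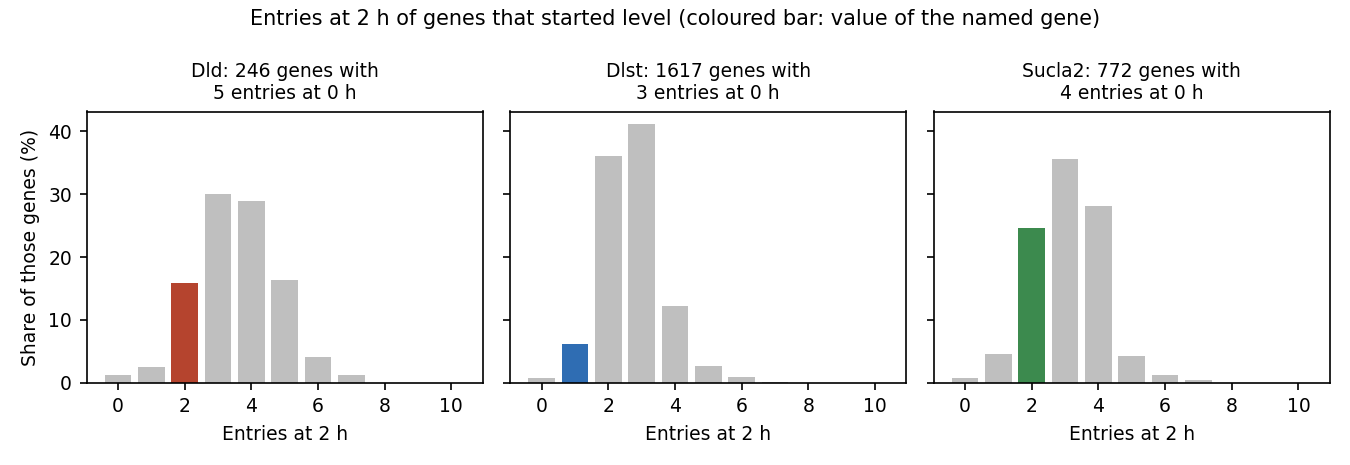
Share in percent (y axis) of the genes that held 5, 3 or 4 entries at 0 h, as Dld, Dlst and Sucla2 did, by their entries at 2 h (x axis). The coloured bar holds the named gene: 15.9% of 246 genes shared the 2 entries of Dld, 6.12% of 1617 the single entry of Dlst and 24.7% of 772 the 2 entries of Sucla2, and taller bars stand to the right of each.

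The differences at 2 h that chose the genes can be set beside the whole table, as a description. Of the 5847 genes covered at 0 h, 31.5% held fewer entries at 2 h, and 31.1% did so among the 3771 of them whose site lay within 500 bp of a RefSeq 5′ end. A difference of at least 2-fold downwards on the log2(entries + 1) scale was reached by 4.79% of the covered genes. Dld and Dlst were at exactly 2-fold and Sucla2 was below it. Genes with few entries cannot lose many, so the genes with equal values at 0 h are the closer comparison, and by it the value of Dlst was the least common of the 3 and that of Sucla2 the most common.

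The 3 intermediate libraries took no part in the choice of the genes, though their comparisons with 0 h share that library. At 0.5 h, 2 of the 3 genes, Dld and Sucla2, held fewer entries than at 0 h, against 21.5% of the covered genes. Beside genes that started level these values were ordinary: 61.4% of the genes with 5 entries at 0 h held as few as Dld or fewer, and 48.1% of those with 4 held as few as Sucla2 or fewer. At 1 h the same 2 genes held fewer and Dlst was equal, against 30.2% of the covered genes with fewer, and the shares of level starters at or below Dld and Sucla2 were 37.4% and 22.7%. At 1.5 h Dld alone held fewer, against 24.6%, and 35.8% of its level starters were at or below it. That library had the most entries per gene, with a mean of 2.18 against 1.88 at 0 h, each gene taken at 1 site. Values were scaled by these library means, not by the totals over all sites, a choice made after seeing the data. The differences of 1.5 h from 0 h were then −2.41 entries for Dld, −0.41 for Dlst and −0.55 for Sucla2, so Dlst and Sucla2 were no longer level.

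The step from 0.5 h to 1 h uses neither of the libraries that chose the genes, and there all 3 held 1 entry less, where 36.3% of the 6152 genes covered at 0.5 h held fewer. Of the 965 genes with 4 entries at 0.5 h, as Dld and Dlst had, 59.1% held fewer at 1 h, and of the 1878 with 3, as Sucla2 had, 39.5% did. The 1 h library had fewer entries as a whole than its neighbours, with a mean of 1.85 entries per gene against 2.12 at 0.5 h and 2.18 at 1.5 h. With values scaled by library means the step was −0.50 entries for Dld, −0.50 for Dlst and −0.63 for Sucla2. From 1 h to 1.5 h, Sucla2 held 2 entries more and the other genes were equal, where 32.4% of the 5817 genes covered at 1 h held more.

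The 3 genes were covered in every library, as were 69.0% of all genes. Their mean over the 5 libraries was 3.4 entries for Dld, 3.0 for Sucla2 and 2.8 for Dlst, and 88.2, 80.4 and 73.9% of the genes in the table had a mean at or below theirs. The order of the means was Dld, Sucla2, Dlst. Neighbours in this order differed by less than 1 entry, while each gene had a range of 2 or 3 entries over time. That range mixes time with error, so with 1 library per time the order of the means cannot be judged. At 2 h the order within the group was Dld and Sucla2 at 2 entries and Dlst at 1. Summed over the 5 libraries, the absolute difference between courses was 3 entries for Dld and Dlst, 4 for Dld and Sucla2 and 5 for Dlst and Sucla2.

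Few genes had the same course. The histone gene H4c11 (chromosome 13, 21735062 to 21735065) alone matched Dld in all 5 libraries. Sucla2 was matched by Retreg3, a receptor of endoplasmic reticulum autophagy, and Tubg1, which encodes gamma-tubulin. The sites of Retreg3 (chromosome 11, 101119854 to 101119860) and Tubg1 (101119926 to 101119929) are neighbours and had equal values, so they count as 1 region. No gene had the exact course of Dlst, and 21 genes differed from it by 1 entry in 1 library. Among them, in alphabetical order, were the actin-related gene Actr3, the uncharacterised C330018D20Rik, the replication kinase subunit gene Dbf4, the translation factor gene Eif2b3 and the endocytic adaptor gene Epn1. Actr3, Eif2b3 and Epn1 held 2 entries at 2 h in place of 1, Dbf4 held 2 at 1 h in place of 3, and C330018D20Rik held 3 at 0.5 h in place of 4. Likeness was measured over 5 libraries on small whole numbers, so 1 entry in 1 library decides whether 2 courses are equal.

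The rest of the pathway was taken from a list of 22 genes of the TCA cycle and the pyruvate dehydrogenase complex, of which 11 had a site in the table and the other 11 were not analysed here. All 11 were covered in all 5 libraries, as were 69.0% of all genes. The summed entries of the list were 34, 34, 30, 31 and 24 in order of time. At 2 h, 7 of the 11 held fewer entries than at 0 h, 3 were equal and 1 held more, with a median log2 difference of −0.42 where the median of all covered genes was 0. At 0.5, 1 and 1.5 h, 3, 4 and 3 of the 11 held fewer and 3, 2 and 1 held more, with a median of 0 at each time. Of the genes covered at 0 h, 21.5, 30.2 and 24.6% held fewer at these times. As Dld, Dlst and Sucla2 were chosen for the difference of 2 h from 0 h, the counts without them are the ones to read. At 0.5, 1 and 1.5 h, 1, 2 and 2 of the other 8 held fewer entries and 2, 2 and 1 held more. At 2 h, 4 of these 8 held fewer, 3 were equal and 1 held more (median −0.21). Over the 4773 genes that, like the list, held 2 to 5 entries at 0 h, 35.9% held fewer and 20.9% held more.

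**Figure D4:**
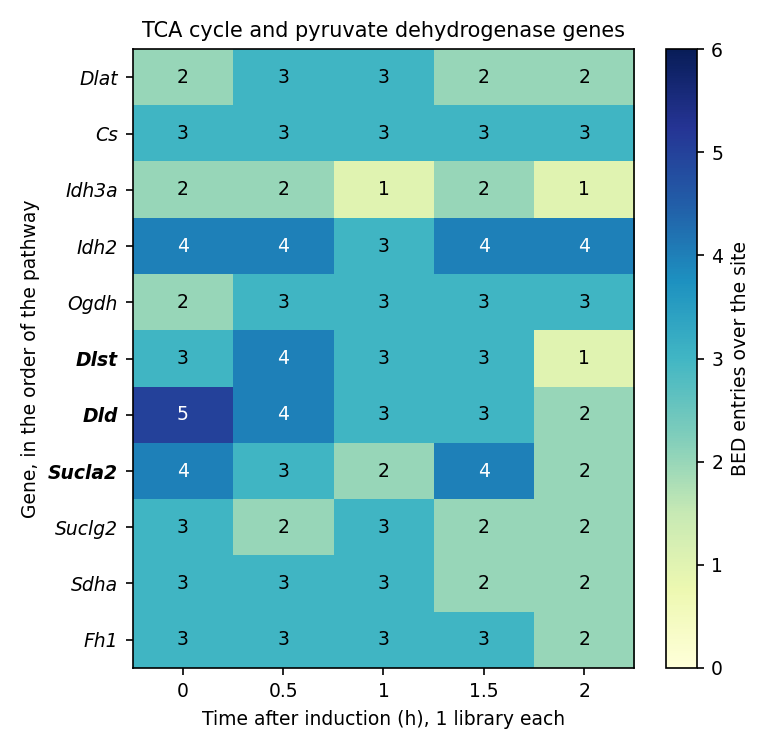
BED entries over the site (number and colour) of the 11 measured genes of the TCA cycle and pyruvate dehydrogenase (rows, in pathway order) in the library of each time (columns, hours). The 2 h column holds 7 values below those of the 0 h column, and the largest gaps between these columns are 3 entries for Dld and 2 for Dlst and Sucla2.

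Within the 2-oxoglutarate dehydrogenase complex, Dlst and Dld were chosen for holding fewer entries at 2 h, so only the direction of Ogdh was open. Ogdh, the decarboxylase, held 2 entries at 0 h and 3 in each later library. It was the only gene of the list with more at 2 h than at 0 h, by 1 entry. Of the genes with 2 to 5 entries at 0 h, 20.9% held more at 2 h. Of the pyruvate dehydrogenase genes of the list, Dlat, the acetyltransferase that corresponds to Dlst, was measured besides the shared Dld, with 2 entries at 0 h, 3 at 0.5 and 1 h and 2 at 1.5 and 2 h. It thus ended where it began. Suclg2, the GTP-specific counterpart of Sucla2, held 3, 2, 3, 2 and 2 entries in order of time. It was equal to its 0 h value at 1 h, where Sucla2 was low, and below it at 1.5 h, where Sucla2 was at its 0 h value.

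Of the genes before this point of the cycle, the citrate synthase gene Cs held 3 entries in every library. Idh2, the NADP-dependent isocitrate dehydrogenase, held 4 entries in every library but that of 1 h, with 3. Idh3a, the catalytic subunit of the NAD-dependent enzyme, held 2 entries at 0, 0.5 and 1.5 h and 1 at 1 h and 2 h. Of those after it, the succinate dehydrogenase gene Sdha held 3 entries up to 1 h and 2 from 1.5 h, and the fumarase gene Fh1 held 3 up to 1.5 h and 2 at 2 h. Idh3a, Suclg2, Sdha and Fh1 were thus each 1 entry lower at 2 h than at 0 h, the smallest difference the table can show, and stand just short of Dlst and Sucla2, which were 2 lower.

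Dlst works only with lipoic acid attached, so the genes of its synthesis and attachment are given beside it. Of 14 genes listed, 9 were measured. At 2 h, 5 held fewer entries than at 0 h, 2 were equal and 2 held more, with a median log2 difference of −0.42. Over the genes covered at 0 h the share with fewer was 31.5%, and 35.9% among those that began with 2 to 5 entries. At 0.5, 1 and 1.5 h, 3, 2 and 2 of the 9 held fewer, where 21.5, 30.2 and 24.6% of the covered genes did. Fdx1, a mitochondrial ferredoxin, held 4 entries at 0 h and 2 in every later library. The lipoyl synthase gene Lias held 3, 2, 4, 3 and 2 entries in order of time. Lipt2, a lipoyl transferase, and Mcat, of mitochondrial fatty acid synthesis, each held 3 entries up to 1.5 h and 2 at 2 h, as Fh1 did. The iron-sulphur assembly genes Bola3, with 2 entries at 0 h and 3 in every later library, and Iba57, with 1 and 2, held more. Fdx1, Bola3 and Iba57 had reached their 2 h value by 0.5 h, whereas Dlst had not by 1.5 h.

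Of 9 genes that regulate the 2-oxo acid dehydrogenases, 5 were measured, and at 2 h 3 held fewer entries, 1 was equal and 1 held more (median log2 difference −0.58), beside 31.5% of covered genes with fewer. The pyruvate dehydrogenase kinase gene Pdk1, whose product inhibits that complex, held 4 entries at 0 h, 1 at 0.5 h and 2 in each later library. The opposing phosphatase gene Pdp1 had 5 sites. The one with the highest mean held 0 entries at 0 h, 3 at 0.5 and 1 h and 4 at 1.5 and 2 h. Pdpr, a regulator of the phosphatase, held 2 at 0 h and 1 at 2 h, as did Bckdk, the kinase of the branched-chain complex. Of 8 genes of other complexes that use Dld, only the glycine decarboxylase gene Gldc was measured, at 0 entries in every library.

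Of 12 genes for routes into and out of succinyl-CoA, 3 were measured, with fewer entries at 2 h than at 0 h for 2 and equal entries for 1, a list too short to set against the 31.5% of covered genes with fewer. The propionyl-CoA carboxylase gene Pccb held 3 and 2, the haem synthesis gene Alas1 held 2 and 1, and Abat, the GABA transaminase gene, held 1 in every library. Of 24 genes that feed or drain the cycle, 10 were measured, and at 2 h 5 held fewer entries, 2 were equal and 3 held more (median log2 difference −0.16), where 35.9% of genes with 2 to 5 entries at 0 h held fewer and 20.9% more. The pyruvate carboxylase gene Pcx held 3 entries up to 1 h, 2 at 1.5 h and 1 at 2 h. The aspartate-glutamate carrier gene Slc25a12 held 3 at 0 and 0.5 h, 2 at 1 and 1.5 h and 1 at 2 h. Both ended at the value of Dlst from the same value at 0 h, but over 2 steps. Glud1 and Got2, which connect glutamate with 2-oxoglutarate, each held 4 at 0 h and 3 at 2 h. The citrate carrier gene Slc25a1 held 2 entries at 0 h and 4 at 2 h, the acetyl-CoA synthetase gene Acss1 2 and 3, and the malic enzyme gene Me1 1 and 2, with 5 at 1.5 h.

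Because human SUCLA2 is among the genes whose loss depletes mitochondrial DNA, 16 genes that maintain that DNA were also read, of which 7 were measured. At 2 h, 2 held fewer entries, 4 were equal and 1 held more, and the median was 0 at each time. The share with fewer was 28.6%, near the 31.5% of all covered genes. Fbxl4 held 4 entries at 0 h, 3 at 0.5 h and 2 in each later library, which is the course of Sucla2 except at 1.5 h. Nme4, a mitochondrial nucleoside diphosphate kinase, held 2 up to 1.5 h and 1 at 2 h. The adenine nucleotide carrier gene Slc25a4 held 1 entry at 0 h and 2 at 2 h, and the polymerase gene Polg held 3 at both.

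**Figure D5:**
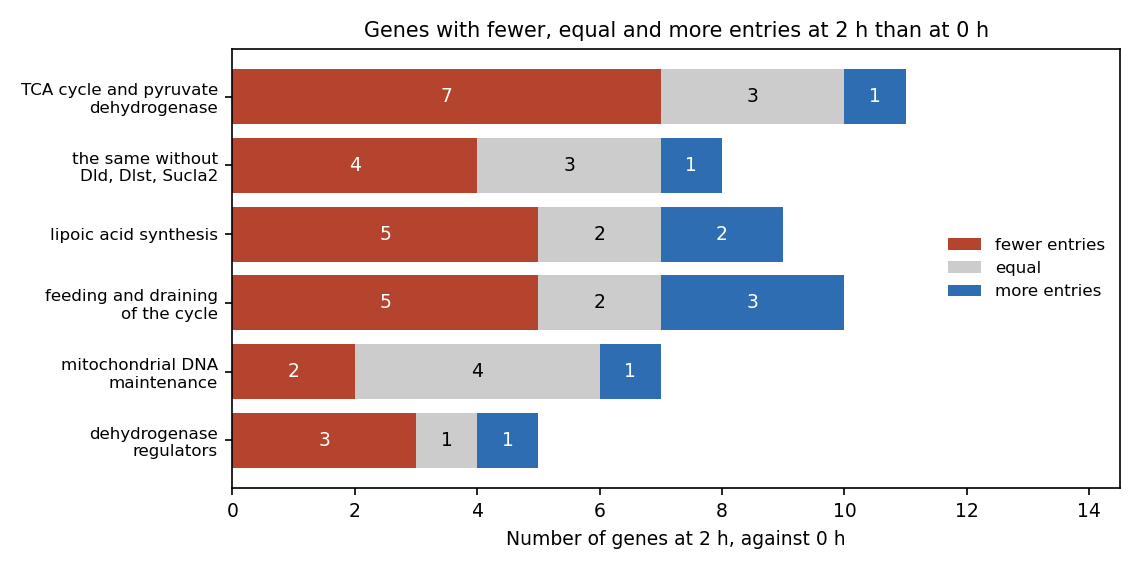
Number of genes (x axis) in the gene lists shown (rows) with fewer, equal and more entries in the 2 h library than in the 0 h library. The lists of routes into and out of succinyl-CoA and of other complexes that use Dld are not drawn. The TCA cycle and pyruvate dehydrogenase list has 7 genes with fewer and 1 with more, and 4 and 1 once Dld, Dlst and Sucla2 are taken out. Of all genes with 2 to 5 entries at 0 h, 35.9% held fewer at 2 h.

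The libraries differed in their totals, from 42527 entries over all sites at 0 h to 65824 at 1.5 h, and 59437 at 2 h. The mean per gene was 1.88 entries at 0 h and 1.98 at 2 h. Covered genes numbered 5847 at 0 h and 6294 at 2 h, with means of 2.58 and 2.53 entries per covered gene. The part of these library differences in the values of Dld, Dlst and Sucla2 was not tested. Of 8 neural progenitor markers, 5 had a site: Hes1 held 1 entry in every library, Pax6 and Msi1 held 0, Nes held 2 at 1.5 h only, and Notch1 held 0, 1, 0, 1 and 3 entries in order of time. Of these, Hes1 alone was covered in every library. Of the markers of other cells, 2 of 5 for neurons, 3 of 7 for glia of the astrocyte and oligodendrocyte lineages and 1 of 5 for microglia, blood and endothelium had a site. Map2 and Cx3cr1 held 2 entries and Rbfox3, Olig2 and Mbp 0 in every library, and Pdgfra held 4, 4, 3, 4 and 3. The summed entries of these lists at 0 h and 2 h were 1 and 4 for progenitors, 2 and 2 for neurons, 4 and 3 for glia and 2 and 2 for the last list, and their part in the differences of Dld, Dlst and Sucla2 was not tested.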

How the data were processed

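Bowtie2, deepTools, MACS2 and the build mm10 (GRCm38) appear in the submitters' processing notes, with neither versions nor settings. How duplicates and the transposase shift were handled, and where the sites came from, is not stated there. The deposited table gives a coverage value per site and library, named after BED files per the file headers, and these whole numbers were used without scaling. Reading them as numbers of BED entries is an inference from the values and column names. The read depth is unknown, so no value has a known precision. The site with the largest mean of the 5 libraries stood for its gene. Log2 differences were taken on log2(entries + 1), which understates those of low genes. With 1 library per time no test was run. The planned Poisson intervals and scaling to totals were for read counts. As the values are not known to be read counts, neither was used, and no counting error is given. The genes and lists were chosen with earlier results of these data known. Beyond Dld, Dlst and Sucla2, genes were named by rule: the whole TCA cycle list, up to 4 genes of each other list with the largest difference at 2 h in each direction, genes with sites within 2000 bp, and up to 5 with the most similar course. Further genes of the lists (Polg, Abat, Gldc and the markers) were named for completeness. Symbols were matched to the table directly, and in 1 case (Pcx) through a synonym. Promoters and 5′ ends are from RefSeq, GRCm38.p6, matched by symbol for 3 of 3 genes. Their reading direction was checked on 1685 pairs of overlapping windows of opposite strands, all of which fitted. Counting was tested on simulated data. Python 3.11.15, pandas 2.3.3 and numpy 2.4.6 were used. Alternatives changed the site per gene, pseudocount, low-value filter, fold limit, scaling and minimum of entries.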

Additional observations from a re-analysis of the deposited data

How the results depend on the processing

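The choice of site could not change any value of Dld, Dlst and Sucla2, since Dlst and Sucla2 have 1 site each and the 2 sites of Dld hold equal values. Outside the TCA cycle list the choice of site was not varied, although some genes had many sites, such as Pdp1 with 5 and Pdpr with 14. With a pseudocount of 0.5, the log2 difference of 2 h from 0 h was −1.14 for Dld, −1.22 for Dlst and −0.85 for Sucla2. With values scaled by library means it was −1.05, −1.04 and −0.79, and this scaling moved the median of all genes by −0.04. Where at least 2-fold was required, 0 of the 11 genes of the TCA cycle list were lower at any of the 3 intermediate times and 2 at 2 h, which were Dld and Dlst. With scaling and a difference of 0.5 entries or more, 5 were lower at 1.5 h, Sucla2 among them. Scaling, applied to these differences after seeing the data, put the step from 0.5 h to 1 h at −0.50 entries for Dld, −0.50 for Dlst and −0.63 for Sucla2, and the difference of 1.5 h from 0 h at −2.41, −0.41 and −0.55. The other alternatives, including the filter on low genes and the minimum of 2 entries, kept the list's counts within 1.5 times. No paired analysis was possible because each time had 1 library. Values are small whole numbers from single libraries of unknown depth, and a difference of 1 entry is the smallest they can show.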
